A study of Mus musculus with 12 samples.

Results

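The transcription factor Nrf2 (gene Nfe2l2), its inhibitor Keap1 and 8 genes known as Nrf2 targets were followed through intestinal stem cells (ISCs) of young and old mice. The 10 genes were chosen by name: Nfe2l2, Keap1, Nqo1, Hmox1, Gclc, Gclm, Txnrd1, Srxn1, Txn1 and Gpx2. All 10 were found among the 54232 genes of the count table, and 9 of them were among the 13368 genes with enough reads to be tested. ISCs came from the small intestine of female mice aged 2 months (young) or 22 months (old), and each 3′ RNA sequencing library was made from 1 mouse. There were 3 libraries in each of 4 groups. The SM6 groups came from wild-type C57/Bl6 mice, and SM6 names an antibody sort for cells that are EPCAM+, EPHB2high, CD44high, CD166+, CD24med and GRP78low and lack CD31 and CD45. The Lgr5-GFP groups came from mice labelled Lgr5-EGFP-IRES-CreERT (Lgr5-EGFP-IRES-CreERT2 in the methods of the study), in which a green fluorescent reporter is expressed from the locus of Lgr5, a receptor made by ISCs, and the young and the old mice both carried it. Strain and isolation changed together, so they cannot be told apart. The labels describe the surface marker sort for all libraries, whereas a legend of the study describes a sort by fluorescence for the reporter strain. No group received a treatment.

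Nrf2 is held in the cytoplasm by Keap1, which delivers it to a ubiquitin ligase for degradation. Oxidants and electrophiles modify cysteines of Keap1, newly made Nrf2 then escapes and, paired with a small Maf protein, binds antioxidant response elements near its target genes. The targets make and use glutathione, reduce thioredoxin and detoxify quinones and haem. In the intestine the pathway is known for its part in protecting the epithelium from food-borne and microbial reactive compounds. Much of the control of Nrf2 acts on the protein, which these RNA measurements do not reach.

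The core of the antioxidant response element, TGACNNNGC, was searched on both strands of RefSeq promoter windows (GRCm38.p6) that run from 250 bases before to 50 bases after each annotated start of transcription. It was present in the windows of 4 of the 8 genes for which a window was at hand (50%), against 14% of 27025 genes in all. Matches were found for Nfe2l2, Gclm, Txnrd1 and Srxn1, whereas the windows of Keap1, Nqo1, Txn1 and Gpx2 held no such letters. The stretches before the start are shown because these 3 genes carry both the match and a measured level, with the match in capitals, 5′ to 3′ on the strand of the gene.
Nfe2l2 (chr2:75704865-75704913, minus strand): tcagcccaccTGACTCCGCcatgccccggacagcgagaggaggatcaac
Gclm (chr3:122245393-122245461, plus strand): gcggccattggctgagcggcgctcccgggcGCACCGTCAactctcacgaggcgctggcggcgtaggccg
Txnrd1 (chr10:82859084-82859152, plus strand): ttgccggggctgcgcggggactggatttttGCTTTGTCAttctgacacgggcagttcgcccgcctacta
In Nfe2l2 the match reads along the gene's own strand, and in Gclm and Txnrd1 it lies on the opposite strand. The stretch of Nfe2l2 overlaps an exon of the neighbouring gene E030042O20Rik in GENCODE vM21, that of Gclm lies outside any annotated gene, and that of Txnrd1 lies within the gene but in no exon, before 1 of its 3 annotated starts with a window. In Srxn1 the match, GCTAGGTCA, falls 29 bases after the start, inside an exon. These matches are letters in a sequence and were not tested for binding.

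Library totals ran from 970472 to 3815425 counts. Levels are given as CPM, counts scaled to a common library total after TMM (an adjustment of totals by the trimmed mean of log ratios between libraries), and levels of different genes were not compared with each other. Stem cell marker genes were present in all libraries: the mean of Lgr5 was 331 ± 22.2 CPM in young and 252.7 ± 28.8 CPM in old SM6 mice, and 257 ± 44.5 CPM in young and 232 ± 15.1 CPM in old reporter mice (SD, n = 3). The summed level of 8 stem cell markers was lower in old than in young mice with no overlap in both isolations (7748 to 8993 against 12520 to 15460 CPM in SM6, and 10370 to 11980 against 12260 to 14000 CPM in Lgr5-GFP). In SM6, 7 of the 8 estimates were negative and Olfm4 and Sox9 were called lower. In Lgr5-GFP, 6 of 8 were negative with a median of -0.10 and 0 were called, and most of the lower sum came from Olfm4 (9958 ± 859 CPM in young and 7936 ± 803 CPM in old mice, SD, n = 3), whereas Slc12a2 was at 828 ± 68.2 and 1087 ± 151 CPM. The summed level of 11 Paneth cell markers, a neighbouring secretory cell of the crypt, differed in direction between the isolations, with overlap in SM6: it was 12880 to 87830 CPM in young and 54110 to 330400 CPM in old SM6, but 56820 to 317100 CPM in young and 22780 to 38960 CPM in old Lgr5-GFP. The libraries SM6 old replicate 3 (330400 CPM) and Lgr5-GFP young replicate 1 (317100 CPM) stood apart. Goblet cell markers (7 genes) summed to 5687 to 9087 CPM in young and 17260 to 18170 CPM in old SM6, and to 5283 to 13710 and 3144 to 5479 CPM in Lgr5-GFP. Enterocyte markers (8 genes) summed to 1940 to 2045 CPM in young and 2521 to 9178 CPM in old SM6. In Lgr5-GFP they summed to 1745 to 3003 CPM in young and 2093 to 11880 CPM in old mice, where 1 old library held the high value and 5 of the 8 genes had a negative age effect (2 called lower). Immune cell markers (8 genes) summed to at most 35.8 CPM and stromal and endothelial markers (7 genes) to at most 8.12 CPM in any library, with between 2 and 5 genes of each list at 0 in a whole group. In these bulk libraries fewer cells of a type and less RNA per cell cannot be told apart.

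None of the 9 tested genes passed the test between old and young ISCs in either isolation (edgeR's quasi-likelihood test with Benjamini-Hochberg adjustment over all tested genes). In SM6, 0 of 9 passed an adjusted p of 0.05, against 2.42% of all tested genes (86 higher and 237 lower). In Lgr5-GFP, 0 of 9 passed, against 0.471% of all. The same count was 0 of 9 for the average age effect over both isolations (2.66% of all), for the difference of the 2 age effects (0.658% of all) and for the comparison of Lgr5-GFP with SM6 averaged over age (0.352% of all). Counts of 0 of 9 are close to these background shares. At an unadjusted p under 0.05 there were 2 genes in SM6 (Txn1 and Gpx2), 1 in the difference of the age effects (Txn1) and 0 in the other 3 comparisons. With DESeq2, with limma voom and with the other scalings and filters that kept all libraries the count of called members was also 0. In its other, full-length libraries from pooled wild-type mice, the study reported Nfe2l2 and Gclm as higher in old ISCs. The SM6 estimates of both genes were positive here too but did not pass the test.

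**Figure D1:**
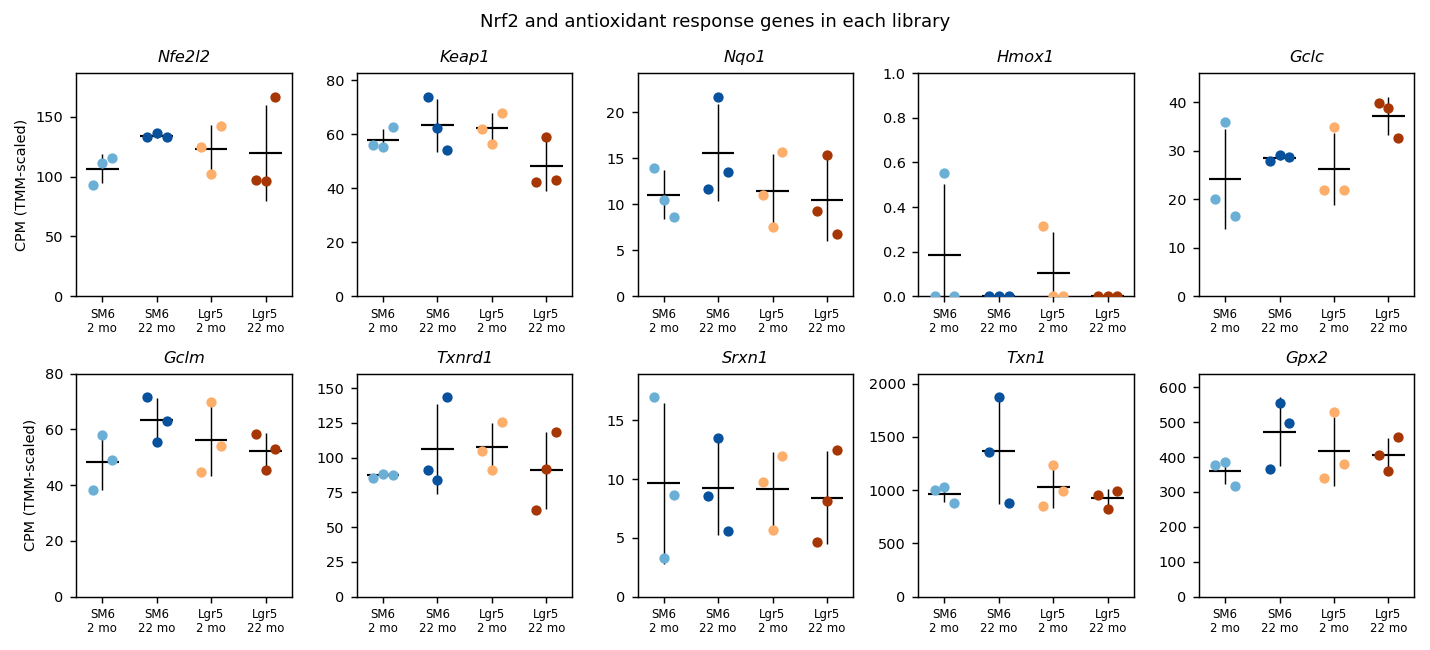
Level of each of the 10 genes in CPM (vertical axis, linear and starting at 0) in the 12 libraries, with young and old SM6 and young and old Lgr5-GFP from left to right; points are libraries, and bars give the mean and SD of 3. The young and old groups overlap in nearly every panel, Nfe2l2 in SM6 being the exception, and Hmox1 has 1 count at most in a library.

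Nfe2l2 encodes Nrf2 itself (ENSMUSG00000015839, chromosome 2, 75675513 to 75704641). Its level was 93.2, 111 and 116 CPM in the 3 young SM6 libraries and 133, 137 and 133 CPM in the old ones. All old SM6 libraries were above all young ones, and the old ones lay close together (107 ± 12 against 134 ± 2.14 CPM, SD, n = 3). This was a log2 fold change of 0.33 ± 0.20 (SE), with an interval of 2 SE from -0.07 to 0.73 and an adjusted p of 0.528 (edgeR). Among all tested genes, 17.5% had young and old SM6 libraries that did not overlap in either direction, and Nfe2l2 was the only 1 of the 9 members to do so. In Lgr5-GFP the level was 125, 102 and 142 CPM in young mice and 97 (replicate 1), 96.5 (replicate 2) and 166 CPM (replicate 3) in old mice. Old replicate 3 was the highest of all 12 libraries, while old replicates 1 and 2 were below all young Lgr5-GFP libraries. The mean was 123 ± 20.4 CPM in young and 120.0 ± 40.2 CPM in old mice, a log2 fold change of -0.06 ± 0.20 (interval -0.45 to 0.34). Without old replicate 3 this became -0.36, and Paneth markers of that library summed to 38960 CPM. The 2 age effects differed by -0.39 ± 0.28 on the log2 scale (adjusted p 0.722, edgeR), so a difference between the isolations was not shown.

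Keap1 (ENSMUSG00000003308, chromosome 9, 21229730 to 21239361), the cysteine-rich sensor that holds Nrf2, was at 56.3, 55.3 and 62.6 CPM in young and 73.8, 62.3 and 54.2 CPM in old SM6. Old SM6 libraries lay on both sides of the young ones, and the log2 fold change was 0.13 ± 0.19 (interval -0.26 to 0.52). Lgr5-GFP libraries held 61.9, 56.6 and 68.1 CPM in young and 42.5, 59.2 and 43.3 CPM in old mice. Here 2 of the 3 old libraries were below every young one and the remaining old one fell within their range. The log2 fold change was -0.37 ± 0.20 (interval -0.77 to 0.02, adjusted p 0.561, edgeR). The exons of Keap1 share 510 bases with the antisense gene Gm16754, which had 8 counts over all libraries.

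Gclc and Gclm encode the catalytic and the modifier subunit of glutamate-cysteine ligase, the rate-limiting enzyme of glutathione synthesis. Gclc (ENSMUSG00000032350, chromosome 9, 77754535 to 77794485) was at 20.0, 35.9 and 16.6 CPM in young and 28.0, 29.1 and 28.7 CPM in old SM6, so that the old libraries lay inside the range of the young ones (log2 fold change 0.22 ± 0.29). Among Lgr5-GFP libraries the level was 22.0, 34.9 and 21.9 CPM in young and 39.9, 38.9 and 32.7 CPM in old mice. Of the 3 old libraries, 2 were above every young one, and young replicate 2 was above the lowest old one. The log2 fold change was 0.56 ± 0.28 (interval 0.0036 to 1.11, unadjusted p 0.0558 and adjusted p 0.525, edgeR). Gclc was the 1 member of 9 with a positive estimate in Lgr5-GFP.

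Gclm (ENSMUSG00000028124, chromosome 3, 122245557 to 122270732) was at 38.1, 58.0 and 49.0 CPM in young and 71.5, 55.5 and 63.0 CPM in old SM6. The lowest old library was below the highest young one, and the log2 fold change was 0.38 ± 0.22 (interval -0.05 to 0.81, adjusted p 0.483, edgeR). The Lgr5-GFP levels were 44.6, 69.8 and 54.1 CPM in young and 58.5, 45.4 and 52.9 CPM in old mice, all old libraries being within the young range (log2 fold change -0.07 ± 0.22). The 2 subunits therefore did not show the same estimates: in Lgr5-GFP the catalytic subunit had the positive one and the modifier did not, and this contrast between genes was not tested. Exons of Gclm share 296 bases with the opposite-strand gene Gm17494 (106 counts over all libraries, against 1035 of Gclm) and 244 bases with the pseudogene Gm6061, which had 0 counts. That stretch is also a near copy of Ppia, so part of the Gclm counts is uncertain.

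The thioredoxin system reduces protein disulphides with electrons from NADPH. Txn1 (ENSMUSG00000028367, chromosome 4, 57943373 to 57956411), thioredoxin itself, was at 1001, 1025 and 875 CPM in young and 1358, 1870 and 877 CPM (replicates 1 to 3) in old SM6. Old replicates 1 and 2 were above all young libraries, and old replicate 3, the library with the highest Paneth marker sum, was at the lowest young level. The log2 fold change was 0.50 ± 0.21 (interval 0.08 to 0.92, unadjusted p 0.0249 and adjusted p 0.281, edgeR). Without old replicate 3 the estimate was 0.75 with an adjusted p of 0.0175, and without both libraries of high Paneth marker sum it was 0.75 with an adjusted p of 0.00791 (edgeR, an alternative chosen after seeing the data). Without old replicate 2, the highest library, it was 0.21 with an adjusted p of 0.789. The call of Txn1 thus depended on which old SM6 library was included, and the part of Paneth cells in it was not tested. In Lgr5-GFP, Txn1 was at 853, 1239 and 987 CPM in young and 956, 821 and 994 CPM in old mice, with overlapping groups (log2 fold change -0.15 ± 0.21). The 2 age effects differed by -0.65 ± 0.29 (unadjusted p 0.0376, adjusted p 0.493, edgeR), and by -1.01 with an adjusted p of 0.0439 without both libraries of high Paneth marker sum.

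Txnrd1 (ENSMUSG00000020250, chromosome 10, 82833951 to 82897712) encodes the cytosolic reductase that recharges thioredoxin. It was at 85.3, 88.4 and 87.9 CPM in young and 90.9, 83.9 and 143 CPM (replicate 3) in old SM6. Young libraries agreed within 1.66 CPM (SD), and a single old library was far above them, the one with the highest Paneth marker sum. It had a log2 fold change of 0.28 ± 0.22 (interval -0.17 to 0.72). The Lgr5-GFP levels were 105, 91.5 and 126 CPM in young and 62.5, 91.6 and 118 CPM in old mice (log2 fold change -0.27 ± 0.22, interval -0.71 to 0.18), with overlapping groups.

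Srxn1 (ENSMUSG00000032802, chromosome 2, 152105516 to 152111376), sulfiredoxin, returns over-oxidised peroxiredoxins to their active form. It was at 16.9, 3.32 and 8.64 CPM in young and 8.55, 13.5 and 5.58 CPM in old SM6, and at 9.74, 5.66 and 11.97 CPM in young and 4.65, 8.11 and 12.5 CPM in old Lgr5-GFP. Libraries of 1 group differed as much as those of different groups, at 6 to 31 counts a library. The log2 fold changes were -0.04 ± 0.52 in SM6 and -0.22 ± 0.52 in Lgr5-GFP, so that a change of up to 2 SE, about 1 log2 unit in either direction, was not detectable at this depth.

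Gpx2 (ENSMUSG00000042808, chromosome 12, 76792333 to 76795554), the gastrointestinal glutathione peroxidase, is made in crypts and reduces hydroperoxides. It was at 377, 385 and 318 CPM in young and 365, 556 and 499 CPM in old SM6. Old replicates 2 and 3 were above all young libraries and old replicate 1 was not. Gpx2 had a log2 fold change of 0.39 ± 0.19 (interval 0.02 to 0.77, unadjusted p 0.0479 and adjusted p 0.374, edgeR). In Lgr5-GFP it was at 340.4, 529 and 381 CPM in young and 405, 359 and 457 CPM in old mice, the old libraries lying within the young range (log2 fold change -0.029 ± 0.19, interval -0.41 to 0.35). Its near copy Gpx2-ps1 (99.5% identical over 186 bases) had 3 counts in all, against 7772 of Gpx2.

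Nqo1 (ENSMUSG00000003849, chromosome 8, 107388225 to 107403206) encodes a quinone reductase and is among the most used readouts of Nrf2 activity. It was at 13.9, 10.5 and 8.64 CPM in young and 11.7, 21.6 and 13.6 CPM in old SM6, and at 11, 7.54 and 15.7 CPM in young and 9.30, 15.4 and 6.73 CPM in old Lgr5-GFP. The groups overlapped in both isolations, and the log2 fold changes were 0.50 ± 0.39 and -0.16 ± 0.40, with counts between 7 and 38 a library. Hmox1 (ENSMUSG00000005413, chromosome 8, 75093621 to 75100589), the inducible haem oxygenase, had 1 count in SM6 young replicate 2, 1 count in Lgr5-GFP young replicate 1 and 0 counts in the other 10 libraries. It was removed by the filter and was not tested. A count of 0 allows up to 3 counts, or 0.943 to 2.88 CPM depending on the library, so all groups were under this floor and no fold change was given.

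**Figure D2:**
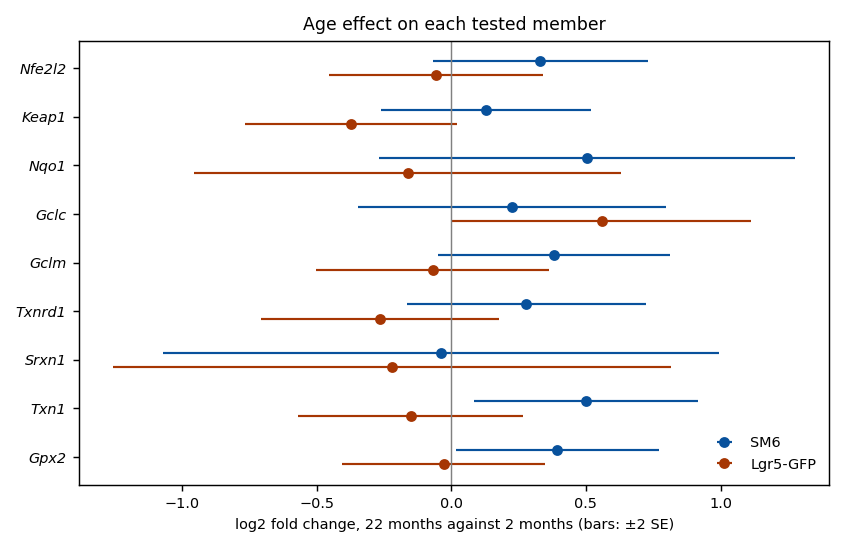
Log2 fold change between 22 and 2 months (horizontal axis) of each of the 9 tested genes in SM6 (blue) and Lgr5-GFP (red), with bars of 2 SE on each side from the edgeR model. In SM6 the points lie between -0.04 and 0.50 and in Lgr5-GFP between -0.37 and 0.56, and most bars cross 0. None of the 9 genes passed the test, also where a bar misses 0.

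In SM6, 8 of the 9 estimates were positive, with a median of 0.33, against 49.1% positive and a median of -0.01 over all tested genes. In Lgr5-GFP, 1 of 9 was positive, with a median of -0.15, against 46.3% and -0.03 over all tested genes. These counts describe estimates that did not pass the test singly, and they moved with the scaling. With library totals alone, 7 of 9 were positive in SM6 and 6 of 9 in Lgr5-GFP, but that scaling moved the median of all genes to -0.16 and 0.16, and relative to those medians 9 of 9 were above in SM6 and 1 of 9 in Lgr5-GFP. The estimates of Lgr5-GFP also moved with single libraries: 4 of 9 were positive without old replicate 2, without young replicate 2 or without young replicate 3. Between young and old SM6 the stem cell, goblet and enterocyte marker sums did not overlap, as given above, whereas the Paneth sums did: old replicates 1 and 2 (54850 and 54110 CPM) were below SM6 young replicate 1 (87830 CPM), and replicate 3 alone was above it. In Lgr5-GFP the Paneth and stem cell sums of old mice were below all those of young mice, and the goblet and enterocyte sums overlapped. The part of these cell types in the signs was not tested. With the Paneth marker sum as a covariate, 8 of 9 estimates were positive in SM6 and 2 of 9 in Lgr5-GFP. For the difference of the age effects, 1 of 9 estimates was positive, with a median of -0.45, against 50.3% positive and a median of 0.0035 over all tested genes.

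Lgr5-GFP and SM6 were compared over both ages to ask whether the pathway was set differently in the 2 isolations. The estimates lay between -0.24 (Txn1) and 0.22 (Gclc) on the log2 scale, and the lowest adjusted p was 0.742 (edgeR). The standard errors were 0.13 to 0.28, apart from 0.37 for Srxn1. The means of the 4 groups can be ordered for each gene, for example from SM6 young (107 CPM) over Lgr5-GFP old (120.0), Lgr5-GFP young (123) to SM6 old (134) for Nfe2l2, but neither the age effect within an isolation nor the average isolation effect passed the test in any of the 9 genes, so neighbours in such an order were not shown to differ.

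Whether Keap1 and the tested target genes followed the level of Nfe2l2 from library to library was examined over the 12 libraries. This was done on log2(CPM + 1), with 8 genes compared. Over all 12 libraries Txnrd1 had the highest value, with Pearson's r of 0.651 (permutation p 0.0206, adjusted 0.165) and Spearman's rho of 0.503 (permutation p 0.0981, adjusted 0.601). Without the 2 libraries farthest from the median of Nfe2l2 (Lgr5-GFP old replicate 3 and SM6 young replicate 1) r was 0.618, and after subtracting the group means it was 0.614. For the other 7 genes r lay between -0.166 (Gclc) and 0.315 (Srxn1). Their lowest adjusted permutation p was 0.754 for r and 0.601 for rho. Several r values depended on the same pair of libraries: without them r was 0.644 for Keap1, 0.535 for Nqo1, 0.589 for Srxn1 and -0.602 for Gclc, over 10 libraries. Single libraries also decided values: r of Srxn1 was 0.658 without SM6 young replicate 1, against 0.651 for Txnrd1 over all 12 libraries. Without Lgr5-GFP old replicate 3, r of Keap1 was 0.617. The libraries share ages, isolations and cell makeup, and none of the 8 relations passed the adjustment. Among 3364 genes with a mean of at least 50 CPM, the 3 with the level most like that of Nfe2l2 over the 12 libraries were Psmd8, a proteasome lid subunit (r 0.908, rho 0.951), BC031181 (r 0.833, rho 0.797) and Ciao2b (r 0.817, rho 0.797). These were picked as the highest of 3364 values, so high values are partly due to the picking, and they were not tested.

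Beyond the 10 genes, 98 genes of the same defence were examined in 8 lists, and 88 of them could be tested. In SM6, 0 were higher and 2 lower in old mice; in Lgr5-GFP, 0 were higher and 1 lower; on average over both isolations, 3 were higher and 2 lower. Over all tested genes the shares called in these comparisons were 2.42%, 0.471% and 2.66%, so 2 of 88 in SM6 is close to the background. The difference of the age effects had 0 higher and 1 lower, and Lgr5-GFP against SM6 had 0 higher and 2 lower, against 0.658% and 0.352% called over all tested genes. Counts this small say little about the lists as a whole, and of all 13368 tested genes 80 were called higher on average. The medians of the 88 estimates were 0.10, 0.07 and 0.05, against -0.01, -0.03 and -0.03 over all tested genes. The 19 thioredoxin, glutaredoxin and peroxiredoxin genes, the 9 genes that supply NADPH and the 12 tested genes of quinone, carbonyl and haem handling had 0 called in any comparison, which for lists of this size is close to the background shares of 0.352% to 2.66%. The thioredoxin list, closest in function to Txn1, Txnrd1 and Srxn1, had a median of 0.09 in SM6 and of 0.05 in Lgr5-GFP. The quinone and haem list, closest to Nqo1 and Hmox1, had medians of 0.21 and 0.08. The glutathione supply list (8 of 10 genes tested), closest to Gclc and Gclm, had medians of 0.09 and 0.05, and the Nrf2 partners and regulators (13 of 14 tested) had medians of -0.02 and -0.07. The other glutathione peroxidases (3 of 5 tested) had medians of 0.34 and 0.10, and the superoxide dismutases and catalase (4 of 5 tested) of -0.34 and 0.03.

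**Figure D3:**
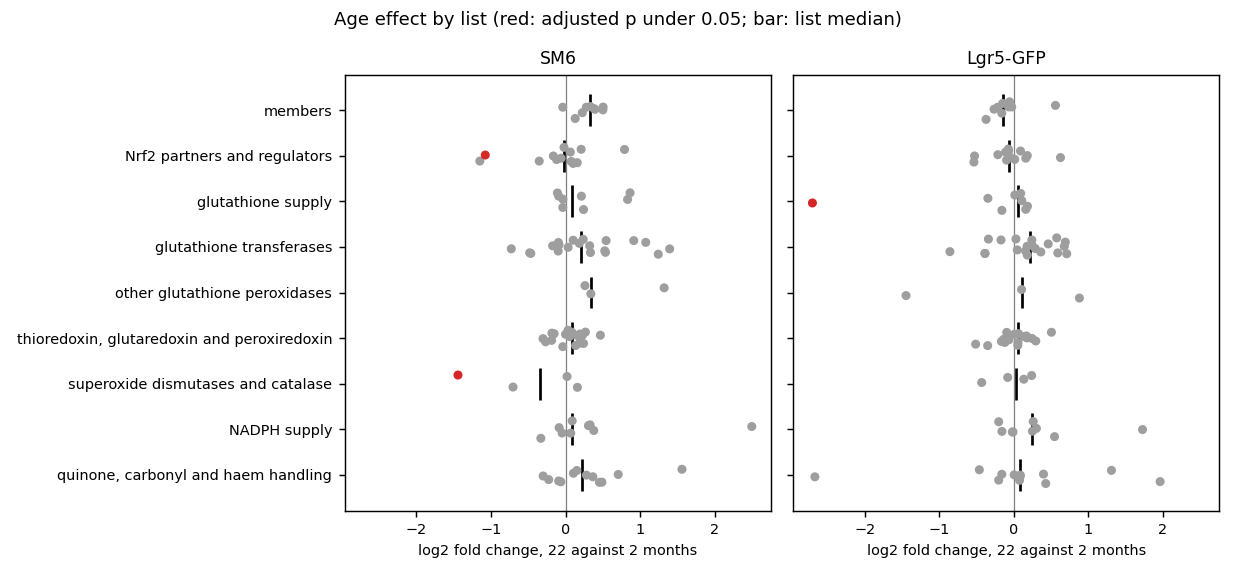
Log2 fold change between 22 and 2 months (horizontal axis) of each tested gene, by list (vertical axis), in SM6 and Lgr5-GFP; red points had an adjusted p under 0.05 (edgeR) and vertical bars are list medians. Red points are Gsk3b and Sod1 in SM6 and Ggt1 in Lgr5-GFP, and all 3 are on the lower side.

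The 3 genes higher in old mice on average were all glutathione transferases, the enzymes that couple glutathione to electrophiles (20 of 22 tested, of which 16 had a positive average estimate, with a median of 0.25, against 46.8% positive and a median of -0.03 over all tested genes). In the same average comparison 7 of 8 stem cell markers had negative estimates (2 called lower) and 2 of 8 enterocyte markers were called higher, and their part in these changes was not tested. Mgst3, a microsomal member, was at 249.8, 235 and 292 CPM in young and 398, 449 and 285 CPM in old SM6, and at 215, 213 and 219 CPM in young and 352, 392 and 300.1 CPM in old Lgr5-GFP. Old replicate 3 of SM6 was the single old library within the young range of its isolation. The average log2 fold change was 0.62 ± 0.12 with an adjusted p of 0.00481, and the isolations alone gave 0.54 and 0.69 (adjusted p 0.119 and 0.0842, edgeR). Mgst2, a related microsomal enzyme, was at 118, 114 and 147 CPM in young and 183, 212 and 152 CPM in old SM6, and at 108, 88.6 and 92.5 CPM in young and 142, 143 and 153 CPM in old Lgr5-GFP. Old libraries were above young ones without overlap in both isolations, and the average log2 fold change was 0.56 ± 0.12 (adjusted p 0.00898, edgeR). Gstt2, a cytosolic theta-class transferase, was at 117, 117 and 125 CPM in young and 138, 145 and 169.7 CPM in old SM6, and at 98.1, 126 and 108 CPM in young and 146, 183 and 163 CPM in old Lgr5-GFP. All 6 old libraries were above all 6 young ones, and the average log2 fold change was 0.45 ± 0.12 (adjusted p 0.0332, edgeR). Its call was lost with library totals alone (0.46, adjusted p 0.108), without both libraries of high Paneth marker sum (0.37, adjusted p 0.136) and without 1 library in 9 of 12 cases (0.41 to 0.47, adjusted p 0.0594 to 0.101, edgeR). Those 9 were all 3 young SM6 libraries, replicates 2 and 3 of old SM6, replicates 1 and 3 of young Lgr5-GFP and replicates 2 and 3 of old Lgr5-GFP. The windows of Mgst2 and Mgst3 held no TGACNNNGC.

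Sod1, the copper and zinc superoxide dismutase of the cytosol, was lower in old SM6. It was at 1405, 1380 and 1161 CPM in young and 407, 570 and 474 CPM in old SM6. Every old library was below 0.5 times the lowest young one, and the log2 fold change was -1.44 ± 0.25, that is 0.368 times the young level (adjusted p 0.00183, edgeR). In Lgr5-GFP it was at 749, 744 and 1163 CPM in young and 455, 1034 and 483 CPM in old mice, with overlapping groups (log2 fold change -0.43 ± 0.24, adjusted p 0.607). The difference between the isolations, 1.01 ± 0.35, did not pass the test (adjusted p 0.311, edgeR). On average over both isolations Sod1 was also called lower, as the 1 called gene of the superoxide dismutases and catalase. The window of Sod1 holds a match to TGACNNNGC on the opposite strand (capitals), outside any annotated gene, which is shown because Sod1 was the antioxidant enzyme called in SM6.
Sod1 (chr16:90220676-90220744, plus strand): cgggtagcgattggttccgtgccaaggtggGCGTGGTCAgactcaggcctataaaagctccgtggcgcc

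Gsk3b encodes a kinase that marks Nrf2 for degradation independently of Keap1, among its many other substrates. It was at 201, 328 and 283 CPM in young and 120, 109 and 157 CPM in old SM6. The groups did not overlap, and the log2 fold change was -1.08 ± 0.20 (adjusted p 0.00359, edgeR). In Lgr5-GFP it was at 246, 185 and 230 CPM in young and 164, 238 and 170.2 CPM in old mice (log2 fold change -0.21 ± 0.20, adjusted p 0.80), and the difference between the isolations was 0.86 ± 0.29 (adjusted p 0.277, edgeR). The average effect was -0.65 ± 0.14 (adjusted p 0.0108), and its call was lost without SM6 young replicate 2 (-0.56, adjusted p 0.0504, edgeR). Beside the changes of Sod1 and Gsk3b in SM6, the stem cell marker sum was lower and the goblet and enterocyte marker sums higher in old SM6 without overlap, as given above. Of the single markers, 4 of 8 enterocyte, 5 of 7 goblet and 2 of 11 Paneth genes were called higher, all 11 Paneth estimates were positive, and their part in the changes of Sod1 and Gsk3b was not tested.

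Ggt1, the surface enzyme that breaks down extracellular glutathione, was lower in old Lgr5-GFP. It was at 36.5, 19.8 and 29.3 CPM in young and 5.98, 4.05 and 2.88 CPM in old Lgr5-GFP, the latter from 9, 5 and 3 counts. The log2 fold change was -2.70 ± 0.49 (adjusted p 0.00969, edgeR), and the call was lost without old replicate 3 (-2.52, adjusted p 0.0502) and by limma voom (-2.51, adjusted p 0.0681). In SM6 it was at 18.2, 17.1 and 46.8 CPM in young and 55.2, 67.0 and 23.9 CPM in old mice, with overlapping groups (log2 fold change 0.86 ± 0.36, adjusted p 0.284, edgeR). The difference between the isolations passed the test, at -3.57 ± 0.61 (adjusted p 0.00554, edgeR). Averaged over age, Ggt1 was lower in Lgr5-GFP than in SM6 by 1.65 ± 0.31 on the log2 scale (adjusted p 0.011, edgeR). That call was also lost without Lgr5-GFP old replicate 3 (-1.56, adjusted p 0.0512) and by limma voom (-1.52, adjusted p 0.0796). Paneth, goblet and enterocyte marker lists moved between the isolations in the same comparison, with 11 of 11, 3 of 7 and 4 of 8 genes called lower in the difference of the age effects, and their part in the change of Ggt1 was not tested. Gpx3, a secreted glutathione peroxidase, was the other gene of these lists called between the isolations. Its counts were 5, 4 and 11 in young and 6, 14 and 23 in old SM6, but 5, 0 and 1 in young and 1, 0 and 0 in old Lgr5-GFP. The fitted log2 value was -3.62 with an adjusted p of 0.0149 (edgeR), but with so few counts in Lgr5-GFP its size depends on the prior count of the fit. The call was lost without Lgr5-GFP old replicate 3 (-3.43, adjusted p 0.05003), SM6 old replicate 3 (-3.32, adjusted p 0.0547) or SM6 young replicate 3 (-3.28, adjusted p 0.0792, edgeR). In the same comparison 6 of 7 enteroendocrine and 5 of 7 goblet markers were called lower in Lgr5-GFP, with enteroendocrine sums of 57.7 to 239 CPM against 696 to 3053 CPM in SM6, and their part was not tested.

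**Figure D4:**
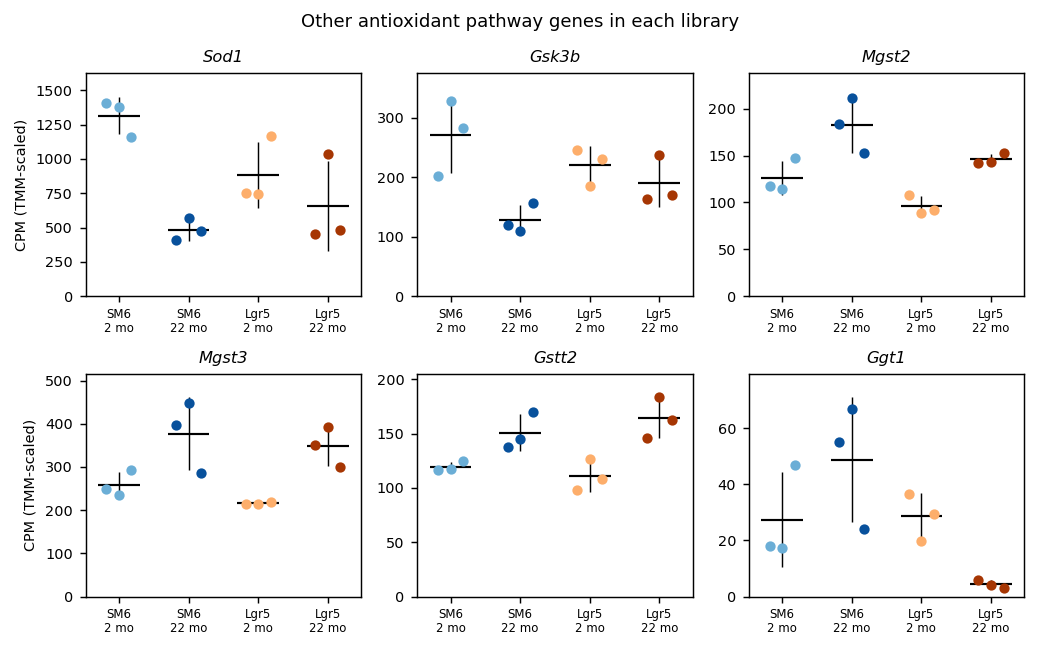
Level in CPM (vertical axis, linear and starting at 0) of 6 other antioxidant pathway genes in the 12 libraries; points are libraries and bars give the mean and SD of 3. Sod1 and Gsk3b are lower in old than in young SM6 without overlap, Mgst2 and Gstt2 are higher in old mice in both isolations, and Ggt1 lies at 5.98 CPM or less in old Lgr5-GFP.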

How the data were processed

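Sorted ISCs of 12 mice (4 groups of 3) had been sequenced from the 3′ end of polyA RNA, with molecular identifiers in the reads. Whether identical identifiers were collapsed is not given in the sources used here, so floors cover counting error only. The authors aligned reads to GRCm38 with STAR 2.4.2a and used featureCounts over GENCODE exons; the deposited values are these unscaled counts. The strand setting and the treatment of reads with several matches are not given in the sources used here.

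Genes with more than 5 reads and at least 1 CPM in at least 1 library were kept, which left 13368. Counts were scaled by TMM and fitted with 1 mean per group in edgeR 4.0.16 (R 4.3.3) by the quasi-likelihood test, with Benjamini-Hochberg adjustment over the 13368 genes and a threshold of 0.05. Tests were two-sided. SE is the log2 fold change divided by the root of F, and intervals span 2 SE on each side. The study called differential expression only in other, full-length libraries, so a count test was chosen here. Correlations used 100000 permutations. Alternatives were other size factors and filters, DESeq2 1.42.0, limma 3.58.1 voom, a replicate block, a Paneth covariate, 1 isolation alone, single libraries left out and, added after seeing the data, both libraries of high Paneth marker sum left out. The fit was also run on simulated counts as a check of the code, and no result given here rests on that run.

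The members and lists were chosen with earlier results of these data known. Named beyond the members were up to 4 called genes per direction and comparison from the 8 lists, and the 3 genes most like Nfe2l2. Positions came from GENCODE vM21 on GRCm38, and near copies of at least 95% identity over 72 bases were searched in the last 500 bases of the members' transcripts only, with blastn 2.17.0. Each replicate is 1 mouse, and no 2 replicates of a group agreed within sampling noise.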

Additional observations from a re-analysis of the deposited data

Results flagged for a closer look

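The age effect of Ggt1 differed between the isolations by a log2 value of -3.57 (Lgr5-GFP minus SM6), with an interval from -4.79 to -2.34 and an adjusted p of 0.00554 in edgeR's interaction test. All 3 old Lgr5-GFP libraries were below all young ones, whereas 2 of the 3 old SM6 libraries were above all young ones. The old Lgr5-GFP values rest on 3 to 9 counts each.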

How the results depend on the processing

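Over all alternatives, 887 of the values of single members kept their direction and side of the threshold, 73 changed sign, always short of the threshold, and 3 gained a call (Txn1). For the other pathway genes 215 kept and 19 lost the call. The cause was not tested. With no filter beyond 1 count, 603, 274, 590, 224 and 131 genes were called for the age effects in SM6 and Lgr5-GFP, their average, their difference and the isolation effect, against 323, 63, 355, 88 and 47. In Lgr5-GFP 97 genes were called with library totals alone and 30 with the Paneth covariate, which also gave 34 for the difference, and voom gave 28 for the isolation effect. With single libraries left out, the counts were 145 to 404 in SM6, 26 to 113 in Lgr5-GFP, 228 to 471 on average, 41 to 98 for the difference and 26 to 61 for the isolation effect. Members called in SM6 were then 0 to 1, and 1 without both libraries of high Paneth marker sum, as for the difference (1).

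Replicate numbers did not pair the samples (same-number deviations correlated at -0.0722 to 0.0455). The replicate block called 331, 57, 360, 104 and 46 genes in the same order and 0 members, with Srxn1 at 0.045 in SM6 and Txnrd1 at -0.018 on average.

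Sign changes with library totals alone were Keap1 in SM6 (-0.013), Nfe2l2 (0.13), Nqo1 (0.027), Gclm (0.11), Txn1 (0.030) and Gpx2 (0.15) in Lgr5-GFP, Srxn1 for the difference (0.14), Gpx2 between isolations (0.037) and the correlation of Gclc with Nfe2l2 (0.0529). With voom they were Srxn1 in SM6 (0.50) and on average (0.046), Txnrd1 on average (-0.13) and between isolations (-0.0021), and Nfe2l2 (-0.055) and Gpx2 (0.012) between isolations. Without both libraries of high Paneth marker sum they were Srxn1 in SM6 (0.22) and on average (0.015), Txnrd1 on average (-0.14), and Gclm (0.047) and Gpx2 (0.092) between isolations. Txnrd1 on average was -0.0090 with no filter, and Gpx2 in Lgr5-GFP 0.072 with the Paneth covariate. After subtracting group means the correlation with Nfe2l2 was -0.0752 for Keap1, -0.248 for Nqo1, -0.0154 for Gclm, -0.0119 for Txn1 and -0.0194 for Gpx2.

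Leaving out 1 library gave the following ranges. In SM6, Srxn1 was -0.47 to 0.68. In Lgr5-GFP, Nfe2l2 was -0.36 to 0.077, Nqo1 -0.53 to 0.13, Gclm -0.22 to 0.089, Srxn1 -0.59 to 0.10, Txn1 -0.27 to 0.0052 and Gpx2 -0.16 to 0.17. On average, Nfe2l2 was -0.013 to 0.20, Nqo1 -0.012 to 0.31, Txnrd1 -0.13 to 0.12 and Srxn1 -0.34 to 0.23. For the difference, Gclc was -0.081 to 0.54 and Srxn1 -0.89 to 0.25. Between isolations, Nfe2l2 was -0.13 to 0.090, Gclm -0.12 to 0.034, Txnrd1 -0.077 to 0.19, Srxn1 -0.32 to 0.26 and Gpx2 -0.11 to 0.058. The correlation with Nfe2l2 was -0.129 to 0.617 for Keap1, -0.182 to 0.402 for Nqo1 and 0.199 to 0.658 for Srxn1. With 3 libraries a group, SE of 0.19 to 0.52 limits what could be seen.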
